A study of Homo sapiens with 66 samples.

Results

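ADAR was targeted alone in wild-type THP-1 cells, and total RNA of the whole cells was compared with that of CTRL cells on day 4 after nucleofection. The comparison rests on 4 of the 66 libraries of the series, which were chosen by their labels: 2 ADAR-targeted libraries and 2 CTRL libraries. THP-1 is a human monocytic leukemia line. All 4 libraries came from a Cas9-transgenic clone labelled WT as its background, were kept in medium, and received the nontarget gRNA NC1. CTRL cells received NC1 as the second gRNA as well, and ADAR-targeted cells received an ADAR gRNA. The cells are 1 clone, raised by limiting dilution, and the methods name no step that selects cells with a cut ADAR gene. The study as a whole also targeted hnRNPC, in a STING-deficient clone on several days (study 1) and in the wild-type clone in total, cytosolic, and nuclear RNA (study 2).

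ADAR deaminates adenosine to inosine in double-stranded RNA, and sequencing reads inosine as guanosine. Most such sites in human RNA lie in inverted Alu repeats of 3′ UTRs and introns. Unedited duplexes can be sensed by IFIH1, which signals through MAVS to type I IFN, and by the kinase EIF2AK2, which phosphorylates an initiation factor in the integrated stress response. The comparison asked how far editing fell and which genes moved when ADAR was targeted without hnRNPC.

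The 4 libraries held 53396969 to 69998172 reads on genes and 5634492 to 7862138 reads on editing sites. The CTRL libraries were less alike than any other replicate pair of study 2: 314 of the 13637 genes tested (2.3%) lay at least 2-fold apart between them, against 36 to 164 genes in the other 8 pairs. CTRL replicate 2 also had the highest level of mitochondrially encoded RNA, at 5832 CPM (reads scaled to a common library total) against 3559 in CTRL replicate 1 and 2778 and 2923 in the ADAR-targeted libraries. The results below that rest on this library are given with and without it. As markers of a monocytic line, AZU1, PRTN3, ELANE, CTSG, LYZ, and SPI1 were present in all 4 libraries, whereas CD14 and CEBPA reached at most 1.40 CPM and CD68 at most 0.153 CPM. Of 9 markers of other cell types with a row, 7 did not pass the expression filter, and CD3E and MS4A1 were at 0 in 3 of the 4 libraries. Of those that passed it, NCAM1 was at 8.58 to 10.3 CPM.

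ADAR itself (chr1:154554171-154600489, minus strand, GRCh37) was measured at 858 and 869 CPM in CTRL and at 564 and 448 CPM in ADAR-targeted cells. The groups did not overlap, and the log2 fold change was −0.77 (SE 0.158, edgeR adjusted p = 0.00468), under the fold threshold used for calls. Cas9 cuts the gene and need not remove its RNA, so that the level of the transcript is no direct measure of the protein. ADARB1, the other catalytically active deaminase of the family, stayed within the spread of its libraries, at 7.69 and 10.3 CPM in CTRL and 11.5 and 9.24 CPM in ADAR-targeted cells. ADARB2 had 0 reads in all 4 libraries. HNRNPC, which was not targeted here, had a log2 fold change of 0.24 (adjusted p = 0.393) that turned to −0.01 without CTRL replicate 2.

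A-to-I editing fell at most of the sites with enough reads. The authors deposited the edited and all reads of 318767 sites, of which 26757 had at least 10 reads in each of the 4 libraries and a mean editing of at least 5%. These sites are called tested below. Each of the following windows of the genome, 10 bases on both sides of an edited A (in capitals), carries an A with one of the 10 largest falls among tested sites with at least 100 reads in every library.
KIAA1143, 3′ UTR, chr3:44791341-44791361, minus strand: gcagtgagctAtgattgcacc
EIF2AK2, 3′ UTR, chr2:37327652-37327672, minus strand: ctaaataactAgaaactgtat
BPNT1, 3′ UTR, chr1:220231477-220231497, minus strand: agcctaggctAgaatgtagtg
ARSD, 3′ UTR, chrX:2825065-2825085, minus strand: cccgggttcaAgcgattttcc
ZDHHC20, 3′ UTR, chr13:21949151-21949171, minus strand: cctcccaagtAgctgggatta
LIMD1, 3′ UTR, chr3:45721907-45721927, plus strand: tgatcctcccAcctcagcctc
At the KIAA1143 site, 49.6 and 57.3% of the reads were edited in CTRL and 11.7 and 8.04% in ADAR-targeted cells. The EIF2AK2 site, in the mRNA of the kinase PKR, went from 58.0 and 49.01% to 11.1 and 9%. The LIMD1 site had the lowest remaining editing of the 6, with 7.69 and 3.47% in ADAR-targeted against 46.3 and 40.5% in CTRL cells. At the sites of BPNT1, ARSD, and ZDHHC20, editing fell by 40.4, 39.0, and 38.1 percentage points. The libraries of the groups were apart at all 6 sites. In hnRNPC-targeted cells without the ADAR gRNA, the lowest value among these sites was 39.4%, at the ZDHHC20 site.

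Pooled over all tested sites, 21.01 and 19.4% of the reads were edited in CTRL and 7.42 and 6.86% in ADAR-targeted cells (20.2 ± 1.11% and 7.14 ± 0.396%, mean ± SD, n = 2). The 95% Wilson interval of CTRL replicate 1 ran from 20.94 to 21.08% and covers counting error only. ADAR-targeted cells thus kept 35.3% of the editing of CTRL cells, a difference of −13.1 percentage points. The groups did not overlap, but with 2 libraries each the exact permutation test cannot go below its two-sided p of 0.333. Sites without a single edited read made up 2.63 and 3.69% of the tested sites in CTRL and 24.8 and 31.2% in ADAR-targeted libraries. In 12.2% of the tested sites, neither ADAR-targeted library had an edited read.

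The other libraries of the wild-type clone fell into a higher level without the ADAR gRNA and a lower level with it. In hnRNPC-targeted cells without the ADAR gRNA, 20.3 and 20.3% of the reads on these sites were edited, and with it 7.36 and 6.54%. In cytosolic RNA, CTRL cells had 21.5 and 21.7% and ADAR-targeted cells 7.07 and 6.77%. In study 1, in the STING-deficient clone with another ADAR gRNA, 25974 of the sites could be read: editing was 15.3 ± 0.164% in CTRL and 6.47 ± 0.203% in ADAR-targeted cells on day 4 (n = 3), against 20.3 and 7.10% in the total RNA compared here over the same sites. Clone, ADAR gRNA, and read length differ between the studies and cannot be told apart.

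Site by site, edgeR's quasi-likelihood test on edited and unedited reads called 9729 of the 26757 tested sites lower (36.4%) and 23 higher (0.086%) for a difference of 5 percentage points or more and an adjusted p no higher than 0.05. At an unadjusted p under 0.05, 12925 sites were lower and 59 higher. The authors kept sites that were edited in at least 1 library with intact ADAR, which favors CTRL over ADAR-targeted cells. For reference, hnRNPC-targeted against CTRL cells, where both arms have ADAR, gave 2 lower (0.00747%) and 3 higher sites (0.0112%). Of all tested sites, 92.1% had a difference below 0 (51.4% in the reference), and the median difference was −10.9 points (−0.35 in the reference). Both ADAR-targeted libraries lay under both CTRL libraries at 71.4% of the sites.

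**Figure D1:**
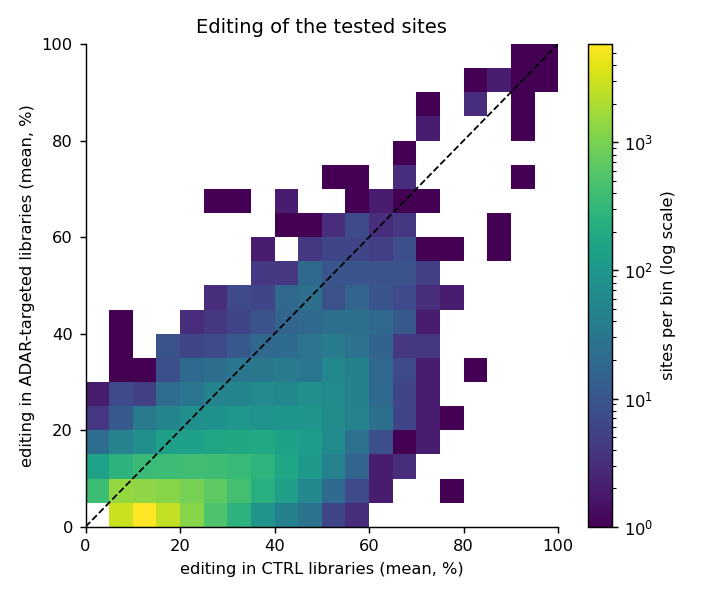
Mean editing of the 26757 tested sites in CTRL libraries (x axis, %) and in ADAR-targeted libraries (y axis, %) in bins of 5 points; color gives the sites per bin on a log scale, and the dashed line marks equal editing. Most sites lie under the line, with the fullest bins at 0 to 5% in ADAR-targeted libraries, and the corner without sites at the lower left follows from the minimum mean editing of 5%.

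Calls followed the reads behind a site. Of 14259 sites whose shallowest library had 10 to 19 reads, 17.6% were lower, of those with 20 to 49 reads 45.5%, of those with 50 to 99 reads 80.2%, and of the 1371 sites with at least 100 reads 96.0%. Of the sites with at least 100 reads, 0 were higher. The share of editing that remained went the same way, from 41.1% of CTRL at 10 to 19 reads to 30.4% at 100 reads or more. A site that was not called is not thereby shown to have kept its editing.

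Pooled editing was lower in ADAR-targeted libraries in each of the 6 region classes. In 3′ UTRs, where Alu pairs of mature mRNAs lie, 5408 of 10105 tested sites were lower (53.5%), and pooled editing went from 21.9 and 20.7% in CTRL to 7.02 and 6.403%. In introns, 2165 of 9672 sites were lower (22.4%), with 20.02 and 17.6% against 8.43 and 7.997%. Intronic sites had a median of 15 reads in their shallowest library and 3′ UTR sites 27, so that their shares of calls cannot be compared. In ADAR-targeted cells, intronic sites kept 43.7% of CTRL editing, intergenic sites 36.1%, 5′ UTR sites 38.4%, and 3′ UTR sites 31.5%. Coding sites kept 59.3%, over 236 sites with 13.3 and 14.1% in CTRL and 8.12 and 8.14% in ADAR-targeted cells. The share of editing that remained also went with the reads behind a site, as given above, and its link to region apart from reads was not tested. Sites on a transcript share its reads, and these shares are descriptions without a test.

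The base next to the edited A also differed in how much editing remained. Only 5.52% of the 26192 tested sites that lay at an A on their strand of the reference had a G just before it. ADAR enzymes disfavor this neighbor, and the CTRL editing of these sites was the lowest, at 17.3 and 16.3%. The rest of the 26757 tested sites were left out here but not from the other totals. Sites with the letters TAG (the edited A in the middle) made up 13.8% of the sites. They had 25.1 and 23.3% editing in CTRL and 9.80 and 9.23% in ADAR-targeted cells, 39.3% of CTRL. All other sites kept 34.6%.

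Of 641 genes or gene groups with at least 10 tested sites, 624 (97.3%) had both ADAR-targeted libraries under both CTRL libraries in pooled editing. ADAR-targeted cells kept a median of 34.9% of CTRL editing per host, with a range from 10.1 to 135%. CYP20A1, a cytochrome P450 with a long edited 3′ UTR, had 127 of 277 sites lower, against 36.4% of all tested sites. Its editing went from 22.1 and 20.1% to 5.97 and 5.84%. NDUFS1, a subunit of respiratory complex I, had 131 of 167 sites lower, with 23.2 and 22.2% against 6.61 and 6.04%. The lowest remaining shares among hosts belonged to ACTR2 (10.1%), CTSC (10.5%), and KIAA1143 (11.1%), whose 10 tested sites were all lower. The KIAA1143 sites had a median of 149 reads in their shallowest library.

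Among mRNAs listed for their edited Alus, some were lower at every tested site. Of all tested sites 36.4% were lower, and of those with at least 100 reads 96.0%. In their shallowest library, the sites of CTSS, PSMB2, and GINS1 had medians of 311, 194, and 188 reads, and those of MYB 21. In CTSS, the lysosomal cysteine protease cathepsin S, all 23 tested sites were lower, and editing went from 22.5 and 23.1% to 6.86 and 6.52%. PSMB2, a proteasome subunit, had 15 of 15 sites lower, with 28.2 and 28.3% against 10.9 and 8.32%. GINS1, a replication factor, had 6 of 6 lower and kept 12.8% of CTRL. EIF2AK2 had 47 of 58 sites lower, with 22.8 and 20.6% against 4.97 and 4.99%. MAVS, the adaptor downstream of IFIH1, had 34 of 73 lower, with 17.7 and 17.9% against 7.52 and 5.96%. In MYB, a transcription factor of immature myeloid cells that is edited in an intron, 11 of 59 sites were lower, with 16.3 and 13.0% against 4.31 and 6.01%. ANKRD36C was the exception of the list: none of its 4 sites was called, and its libraries overlapped at 13.6 and 18.5% in CTRL and 18.8 and 13.2% in ADAR-targeted cells.

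Of 123 coding sites with at least 20 reads in all 4 libraries, 26 were lower (21.1%) and 0 higher, whereas 7224 of all 12498 tested sites at that depth were lower (57.8%). The following windows show coding sites of SRD5A3 (shared with an overlapping gene model), an enzyme of dolichol synthesis, and of SRP9, a signal recognition particle subunit.
SRD5A3, coding sequence, chr4:56237889-56237909, plus strand: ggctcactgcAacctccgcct
SRP9, coding sequence, chr1:225974571-225974591, plus strand: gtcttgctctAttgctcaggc
The SRD5A3 site had the largest fall of the coding sites, from 39.5 and 35.6% to 6.98 and 6.56%. The SRP9 site, with at least 168 reads per library, went from 27.5 and 26.2% to 6.32 and 8.85%. Other coding sites with falls of over 20 points lay in SLC35A3, TAF8, the overlapping genes BORCS8 and MEF2B, IL12RB1, and ZNF91.

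A small set of positions had little difference between the groups. Of 291 sites with at least 100 reads in each library and a mean editing of at least 20%, 286 were lower and 5 were not. The windows below hold sites with the smallest differences in that set.
SAMHD1, 3′ UTR, chr20:35518819-35518839, minus strand: ggaaagagagAaagaaaagaa
SAMHD1, 3′ UTR, chr20:35518815-35518835, minus strand: agagagaaagAaaagaaagaa
RPL7L1, 3′ UTR, chr6:42856100-42856120, plus strand: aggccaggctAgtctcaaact
The first SAMHD1 site, in a run of A and G letters, had 28.5 and 38.7% in CTRL and 34.4 and 30.4% in ADAR-targeted cells, which overlapped. The second SAMHD1 site also overlapped, with 31.3 and 38.4% against 33.6 and 32.8%. Their differences turned with the CTRL library left out, from 3.91 and 1.90 points without CTRL replicate 2 to −6.28 and −5.18 points without CTRL replicate 1. The RPL7L1 site was called lower, with a difference of −6.402 points (68.0 and 62.0% against 58.9 and 58.2%, adjusted p = 0.0266). In SAMHD1, a triphosphohydrolase of deoxynucleotides, the groups overlapped in pooled editing, with 92.5% of CTRL left and 0 of 14 sites called. These 14 sites had a median of only 12 reads in their shallowest library. Their median editing was 14.5% in CTRL and 7.79% in ADAR-targeted cells.

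A large group of sites with little loss lay in RPAP3-DT, a divergent transcript next to RPAP3 (chr12:48099988-48102892, plus strand). Of its 274 tested sites, 12 were lower (4.38%, against 36.4% of all tested sites) and 4 higher. Editing went from 24.4 and 26.4% to 21.3 and 20.7%. On the minus strand of the same locus, 1 of 155 sites was lower and 2 higher, with 27.4 and 25.2% against 23.2 and 25.3%, which overlapped. In all, 11 hosts kept over 80% of CTRL editing in pooled reads, RPAP3-DT and SAMHD1 among them. The others included MFSD2A (88.7%), EIF3D (92.6%), ESRRA (102%), CPSF1 (120%), and SLFN13 (135%). As medians of sites, EIF3D went from 15.8 to 8.82% and MFSD2A from 15.2 to 13.0%, while ESRRA, CPSF1, and SLFN13 were higher in ADAR-targeted cells. In SLFN13, the libraries overlapped at 26.3 and 38.3% in CTRL and 36.7 and 50.7% in ADAR-targeted cells. The 23 sites called higher had few reads, with a median of 21 in the shallowest library and at most 64, and rises of 6.64 to 37.9 points, and they were 12 without CTRL replicate 2 and 11 without ADAR-targeted replicate 2. They included 2 sites in SLFN13 and 4 in RPAP3-DT.

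Editing-cluster-rich regions (ECRs) are the windows that the authors made by extending editing clusters on both sides and merging them. Summed over the tested sites of an ECR, 1102 of 1391 ECRs were lower (79.2%) and 1 was higher (0.0719%). Both ADAR-targeted libraries lay under both CTRL libraries in 1244 ECRs (89.4%). Of 200 ECRs with at least 1000 reads in each library, 197 were lower. The ECR in the 3′ UTR of LIMD1 had the largest fall among these, from 34.3 and 33.4% to 10.8 and 8.02% over 28 sites. The ECR of KIAA1143 went from 24.9 and 26.2% to 3.36 and 2.31%, and that of SSR3, a subunit of the translocon-associated complex, from 38.7 and 37.2% to 18.4 and 17.5%. The only ECR called higher lay in CHD8, with 23.2 and 12.1% in CTRL and 35.4 and 39.6% in ADAR-targeted cells. It rests on 106 to 209 reads, and hnRNPC-targeted libraries read 0 and 37.7% there.

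A smaller share of genes than of tested sites was called, but these shares rest on unlike rules. Sites were tested only if edited, and were called by percentage points rather than by fold. Of 13637 genes tested, 278 were higher (2.04%) and 123 lower (0.902%) in ADAR-targeted cells, where a call needed a log2 fold change of 1 or more in size together with an edgeR adjusted p no higher than 0.05. By adjusted p alone, 1230 genes were higher (9.02%) and 529 lower (3.88%). The unadjusted p was under 0.05 for 2503 higher and 1381 lower genes, and the median log2 fold change of all genes was 0.07. Protein-coding genes made up 230 of the higher and 81 of the lower genes, and lncRNAs 18 and 22. The 2 directions differed in how they rest on CTRL replicate 2. Without that library, 219 genes were higher, 192 of them among the 278, but only 18 lower, 12 of them among the 123. CTRL replicate 2 was at least 2-fold above CTRL replicate 1 in 74 of the 123 lower genes (60.2%) but in 5 of the 278 higher (1.8%) and in 1.94% of all genes. Without CTRL replicate 1 the counts were 440 and 391, without ADAR-targeted replicate 1 181 and 47, and without ADAR-targeted replicate 2 30 genes were lower. The study describes the libraries of the wild-type clone as 2 independent experiments, and p-values measure the spread between these libraries.

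**Figure D2:**
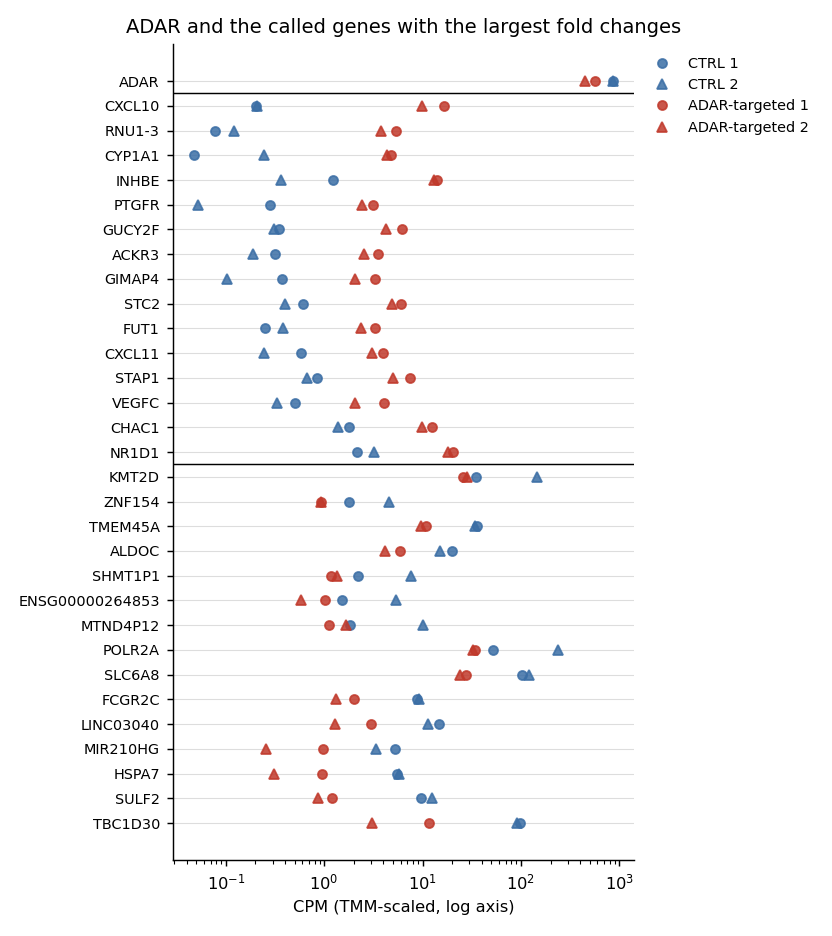
Levels in CPM (x axis, log scale, TMM-scaled) of ADAR, the 15 higher genes and the 15 lower genes with the largest fold changes (y axis); blue marks are CTRL and red marks ADAR-targeted libraries, circles replicate 1 and triangles replicate 2. The higher genes have both CTRL libraries to the left of both ADAR-targeted ones, whereas several lower genes, such as POLR2A and KMT2D, have CTRL replicate 2 far to the right of CTRL replicate 1.

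Of the lists examined, that of the IFN-stimulated genes was the longest and held the most higher genes, 36 of the 278. Lists and members were chosen with earlier results of these data known. The counts set against all genes, here and below, are thus descriptions without a test. Of 70 listed, 68 were tested, 36 were higher (against 2.04% of all genes) and 0 lower, with a median log2 fold change of 1.12 against 0.07 over all genes. CXCL10, a chemokine for T cells, had the largest fold change of all genes tested: it went from 0.204 and 0.208 CPM to 16.7 and 9.90 CPM (log2 fold change 6, SE 0.606, adjusted p = 9.57e-06). CXCL11, a chemokine for the same receptor, went from 0.580 and 0.243 CPM to 3.98 and 3.07 CPM. The libraries of both genes were far apart between the groups.

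Antiviral effectors of the list moved by smaller steps. IFIT2, which binds viral RNA, was at 28.2 and 19.5 CPM in CTRL and 119.9 and 89.4 CPM in ADAR-targeted cells (log2 fold change 2.13, SE 0.256). OASL, a relative of the 2′-5′ oligoadenylate synthetases, went from 7.62 and 6.07 CPM to 55.0 and 40.5 CPM. MX1, a GTPase that blocks influenza and other viruses, went from 76.6 and 56.0 CPM to 308 and 194 CPM. The groups did not overlap in any of these genes, and MX1 had the widest spread between the ADAR-targeted libraries. ISG15, a ubiquitin-like modifier, rose with a log2 fold change of 2.08, IFI44 with 2.03, IFIT1 with 2.11, and BATF2 with 2.64. At the lower end of the called members were CMPK2, at 1.09, XAF1, at 1.10, and IFI6, at 1.10.

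The count of called IFN-stimulated genes depended on single libraries, while 67 of the 68 values lay above 0, against 8153 of all 13637 genes. Without CTRL replicate 2, 24 of the 68 were higher and the median was 1.01, and without ADAR-targeted replicate 1 19 were. By adjusted p alone, 49 of the 68 were higher, against 1230 of all genes (9.02%). EIF2AK2, also an IFN-stimulated gene, was at 137 and 166 CPM against 197 and 168 CPM (log2 fold change 0.27, adjusted p = 0.447). In study 1, recombinant IFN-α raised 159 genes (1.21% of those tested there), and of the 153 of these tested here, 53 were higher and 0 lower with a median of 0.76, against 2.04% higher among all genes. Without CTRL replicate 2, 33 were higher and the median was 0.63.

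RNA of the type I and III IFN genes was scarce. IFNB1 had 8 and 15 reads in CTRL and 83 and 65 reads in ADAR-targeted cells, or 0.126 and 0.260 against 1.17 and 1.11 CPM. IFNL1 had 0 and 1 reads in CTRL and 23 and 24 in ADAR-targeted cells. Both were under the expression filter of the test, and their groups did not overlap. IFNA1, IFNA2, and IFNE had 0 reads in all 4 libraries, and a count of 0 allows up to 3 reads in a library.

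Some sensors of foreign nucleic acids were higher. Of 15 tested, 5 were higher (against 2.04% of all genes) and 0 lower, with a median of 0.28. The count was 3 without CTRL replicate 2 and 2 without ADAR-targeted replicate 1, and the median was 0.16 without CTRL replicate 2 and 0.47 without CTRL replicate 1. RIGI, which senses RNA 5′ ends, went from 25.3 and 19.01 CPM to 100.5 and 62.1 CPM (log2 fold change 1.87). IFIH1, the sensor of long duplexes, went from 35.3 and 28.0 CPM to 86.4 and 62.8 CPM (1.24). TLR7, an endosomal sensor of single-stranded RNA, went from 0.737 and 1.30 CPM to 7.84 and 6.37 CPM (2.81). DHX58 and IFI16 were the other called members, and IFI16 and DHX58 were not called without CTRL replicate 2. MAVS was at 37.0 and 37.2 CPM in CTRL and 33.7 and 36.0 CPM in ADAR-targeted cells (log2 fold change −0.09, adjusted p = 0.615).

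Of 15 tested genes of IFN signaling, 2 were higher (against 2.04% of all genes), with a median of 0.20. The count was 4 without CTRL replicate 1 and 5 without ADAR-targeted replicate 2, and the median was 0.43 without CTRL replicate 1 and 0.11 without CTRL replicate 2. The 2 genes were IRF7, a transcription factor that amplifies IFN expression (24.0 and 18.2 CPM against 76.8 and 51.4 CPM), and USP18, a brake on the IFN receptor (10.6 and 7.09 CPM against 40.2 and 28.8 CPM). IRF1 was at 31.9 and 23.7 CPM in CTRL and 61.7 and 46.8 CPM in ADAR-targeted cells, with a log2 fold change of 0.96 under the threshold.

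Some genes of NF-κB signaling and inflammation were higher as well. Of 15 tested, 6 were higher (against 2.04% of all genes) and 0 lower, with a median of 0.87 and a lowest value of −0.33, and the same number was called without CTRL replicate 2. BIRC3, an inhibitor of apoptosis and NF-κB target, went from 2.02 and 1.80 CPM to 10.5 and 7.92 CPM (log2 fold change 2.27). TNFAIP3, which restrains NF-κB, went from 13.7 and 12.1 CPM to 56.6 and 39.2 CPM (1.90). ICAM1, an adhesion molecule, rose with 2.22, and RELB, an NF-κB subunit, with 1.43. The cytokines CCL2 and IL1B rose with 1.85 and 1.57, from under 3 CPM in CTRL. TNF and IL6 were too low for a test, at 0.722 to 1.30 CPM and at most 0.0170 CPM.

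The integrated stress response was the other list with many higher members. Of 22 tested genes, 10 were higher (against 2.04% of all genes) and 0 lower, with a median of 0.92, and 10 were called without CTRL replicate 2. By adjusted p alone, 18 were higher and 1 lower, which was VLDLR, against 9.02% higher and 3.88% lower of all genes. ASNS, which makes asparagine, went from 11.8 and 12.3 CPM to 46.0 and 45.3 CPM (log2 fold change 1.92, SE 0.168, adjusted p = 2.95e-06). TRIB3, a pseudokinase that restrains the response, went from 56.7 and 49.5 CPM to 159.8 and 145 CPM. DDIT3, the transcription factor CHOP, went from 14.7 and 11.2 CPM to 30.5 and 30.8 CPM. The groups did not overlap in these 3 genes. INHBE, a subunit of activin, had a log2 fold change of 4.07, CHAC1, which degrades glutathione, of 2.83, NUPR1 of 2.40, and ULBP1, a ligand of natural killer cells, of 1.74. STC2, a secreted glycoprotein, SESN2, and ATF3 rose with 3.41, 1.42, and 1.12, and ATF3 was not called without CTRL replicate 2 (adjusted p = 0.147). The RNA of ATF4, the factor that is controlled at its translation, had overlapping groups, with 360 and 244 CPM in CTRL and 346 and 382 CPM in ADAR-targeted cells.

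Further genes with large rises were members of none of these lists. CYP1A1, the target of the aryl hydrocarbon receptor, went from 0.0471 and 0.243 CPM to 4.81 and 4.33 CPM (log2 fold change 5.00). GUCY2F, a guanylate cyclase of photoreceptors, went from 0.345 and 0.312 CPM to 6.24 and 4.26 CPM (3.99). NR1D1, a repressor of the circadian clock, went from 2.15 and 3.24 CPM to 20.2 and 17.9 CPM (2.83). PTGFR, the receptor of prostaglandin F, rose with 4.00, ACKR3, an atypical chemokine receptor, with 3.56, and VEGFC, a growth factor of lymphatic vessels, with 2.88. GIMAP4, FUT1, and STAP1 rose with 3.45, 3.15, and 3.02. RNU1-3, a U1 snRNA copy, was called with 5.50 (adjusted p = 0.034), but not without CTRL replicate 2 (adjusted p = 0.21), and reads of near-identical copies make its count uncertain.

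Lower genes that were called with and without CTRL replicate 2 were 12 in number. TBC1D30, a GTPase-activating protein for Rab proteins, fell the furthest of all genes, from 97.8 and 91.1 CPM to 11.7 and 3.03 CPM (log2 fold change −3.66, SE 0.849, adjusted p = 0.0104). SULF2, an extracellular sulfatase, went from 9.57 and 12.4 CPM to 1.203 and 0.869 CPM. SLC6A8, the creatine transporter, went from 103 and 120.5 CPM to 27.4 and 24.0 CPM. The groups were apart in all 3 genes. ALDOC, a glycolytic aldolase, fell by 1.79 on the log2 scale, TMEM45A by 1.76, ADAMTS4 by 1.51, ZNF395 by 1.48, and PNCK by 1.42. The others were SPON2, EBF3, RUSC1-AS1, and ZNF710-AS1. In hnRNPC-targeted cells without the ADAR gRNA, against the same CTRL libraries, all but ZNF710-AS1 (0.27) also had log2 fold changes below 0. EBF3 had −1.20 there, ALDOC −1.28, and ZNF395 −0.84 (edgeR adjusted p = 0.00077, 0.0400, and 0.0163). The rest had adjusted p-values over 0.05, such as TBC1D30 with −2.05 (40.1 and 5.55 CPM). Whether the falls differ between these cells and ADAR-targeted cells was not tested. BNIP3 and BNIP3L, which like ALDOC are induced by hypoxia, were named after their values were seen, and no list of hypoxia genes was examined. They had −0.99 and −0.95 with all libraries and −1.08 and −1.01 without CTRL replicate 2. In hnRNPC-targeted cells without the ADAR gRNA, they had −1.07 and −0.73 against CTRL (edgeR adjusted p = 0.00481 and 0.0215).

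Many other lower genes had their highest level in CTRL replicate 2. POLR2A, the largest subunit of RNA polymerase II, was at 51.5 and 236 CPM in CTRL and at 34.1 and 32.5 CPM in ADAR-targeted cells, and its log2 fold change went from −2.11 to −0.59 without that library. KMT2D, a histone methyltransferase, was at 34.6 and 147 CPM against 25.7 and 28.4 CPM. Of 12 mitochondrially encoded genes tested, 7 were lower with a median of −1.22, and none without CTRL replicate 2, where the median was −0.29. Of 5 nuclear lncRNAs tested, MALAT1, NEAT1, and KCNQ1OT1 were lower and none without that library. MKI67 and TYMS, of 20 genes of replication and mitosis (median 0.01), and SON, of 17 known recoding genes (median −0.10), were lower with all libraries and not called without CTRL replicate 2. Over all genes tested, 0.902% were lower with all libraries. In each gene named here CTRL replicate 2 had the highest level of the 4 libraries. Whether this library or the other CTRL library better represents the condition was not tested.

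Genes of cholesterol synthesis had lower values in ADAR-targeted cells. All 16 tested members had a log2 fold change below 0, with a median of −0.66 and of −0.80 without CTRL replicate 2. Of all 13637 genes, 8153 were above 0 with all libraries. Only INSIG1, which retains the sterol sensor in the endoplasmic reticulum, passed both thresholds, from 378 and 280.1 CPM to 179.9 and 124 CPM (log2 fold change −1.11, adjusted p = 0.0195; adjusted p = 0.0503 without CTRL replicate 2). DESeq2 called 5 of the 16 lower, and 0 were called without ADAR-targeted replicate 2. Over all 13637 genes, DESeq2 called 187 lower. By adjusted p alone 10 of the 16 were lower, against 529 of all genes (3.88%). HMGCS1, an enzyme at the start of the pathway, had a log2 fold change of −0.93, and SREBF2, its transcription factor, of −0.90.

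Further lists had few or no called members, and with 13 to 20 tested genes such counts cannot be read against the shares of all genes. Those shares were 2.04% higher and 0.902% lower, and the median of all genes was 0.07. Of 15 genes of the p53 pathway and growth arrest, GADD45A was higher (14.3 and 12.3 CPM against 30.2 and 30.2 CPM), and the median was 0.17. Of 20 immediate early factors, ATF3 was the only called member, and the median was 0.09. Of 13 myeloid identity genes, 0 were called, with a median of 0.08. Among them, ITGAM, an integrin of monocytes, went from 35.5 and 29.2 CPM to 53.4 and 47.1 CPM (0.64), and CSF1R, a growth factor receptor of monocytes, from 61.5 and 68.2 CPM to 46.3 and 46.5 CPM (−0.48). Both passed the threshold of adjusted p (0.0087 and 0.0186) but not that of the fold.

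**Figure D3:**
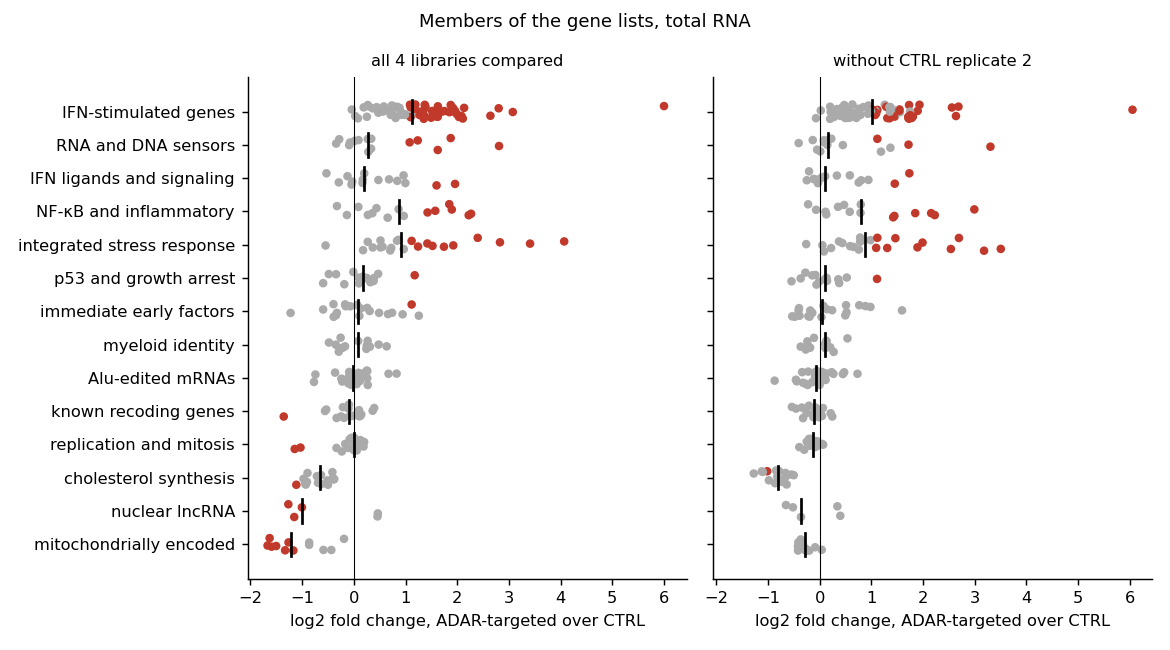
Log2 fold changes of ADAR-targeted over CTRL cells in total RNA (x axis) for the tested members of each gene list (y axis), with all 4 libraries at the left and without CTRL replicate 2 at the right; red points passed both thresholds and black bars are medians. IFN-stimulated genes and the integrated stress response keep medians of 1.01 and 0.88 at the right, whereas the medians of mitochondrially encoded genes and nuclear lncRNAs move from −1.22 to −0.29 and from −1.01 to −0.36.

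The levels of the mRNAs with tested sites were read in the same fit, where 2.04% of all genes were higher and 0.902% lower. Of 547 genes with at least 10 tested sites, 0 were higher and 2 lower, with a median log2 fold change of 0.06, close to the 0.07 of all genes. Of 1519 genes with at least 1 tested site, 8 were higher and 6 lower. A tested site needs at least 10 reads in every library, so that genes with almost no reads in CTRL could not enter these sets. The shares of these sets are thus not directly comparable with those of all genes. None of the 30 listed mRNAs with edited Alus was called, a number too small to be read against the shares of all genes, and their median was −0.02.

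ECRs as RNA were counted in the same libraries. Of 2470 ECRs tested for abundance, 13 were more abundant (0.526%) and 116 less (4.70%), which fell to 4 and 3 without CTRL replicate 2, all among those already called. The ECR in the 3′ UTR of AJUBA, a LIM domain protein, was at 3.28 and 2.69 CPM in CTRL and 19.3 and 16.6 CPM in ADAR-targeted cells (log2 fold change 2.58). It was called in both settings, as were ECRs of MVB12A, TMEM30A-DT, and SLC3A2, the heavy chain of an amino acid transporter (34.9 and 32.8 CPM against 81.7 and 83.3 CPM). ECRs at the IFN-stimulated genes MX1 and RIGI had log2 fold changes of 2.06 and 1.75, with adjusted p-values of 0.0819 and 0.0667 without CTRL replicate 2. The ECR of FADS2, a fatty acid desaturase, went from 11.4 and 10.3 CPM to 3.42 and 2.11 CPM (log2 fold change −1.96), with an adjusted p of 0.0667 without CTRL replicate 2. Without CTRL replicate 1, 21 ECRs were more and 258 less abundant, and without ADAR-targeted replicate 2, 28 were less abundant. Of 1052 ECRs with lower editing that were tested for abundance, 2 were more abundant and 30 less, with a median of −0.08 against −0.13 over all ECRs.

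Cytosolic RNA of the same clone and gRNAs, in 4 other libraries, was read by the same fit. There, 628 genes were higher (4.61%) and 47 lower (0.345%). Of the 278 genes higher in total RNA, 277 had a cytosolic log2 fold change above 0, with a median of 1.56 against 0.001 over all genes. Of these 278, 231 were called (83.1% of the 278 and 36.8% of the 628). Labels do not say whether total and cytosolic RNA came from the same cultures. The difference between the responses itself passed the test for 133 genes (0.975%), 132 of them with the higher value in cytosolic RNA. Among these, IL4I1, an amino acid oxidase, had log2 fold changes of 1.78 in total and 5.07 in cytosolic RNA, FFAR2 of 2.25 and 4.61, and SERPINA1, the protease inhibitor α1-antitrypsin, of 0.27 and 2.42. TAPBP, of the peptide loading complex, was at −0.65 and 1.70. In CTRL cells, each of these genes had lower levels in cytosolic than in total RNA. IL4I1 was at 0.0650 and 0.126 CPM in cytosolic CTRL RNA and FFAR2 at 0.146 and 0.0719 CPM, which is near 0. In ADAR-targeted cells, IL4I1 was at 4.71 and 3.15 CPM in total and 3.77 and 2.65 CPM in cytosolic RNA. A larger cytosolic fold change is thus not a higher cytosolic level. Of the 278 genes, 11 were among the 133. The count fell to 53 without replicate 1 and 83 without replicate 2 of cytosolic CTRL, to 54 and 85 without those of cytosolic ADAR-targeted, and to 67 and 63 without those of total ADAR-targeted cells, and rose to 208 without CTRL replicate 1.

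In study 1, on the matched day 4, 9 genes were higher (0.0682%) and 0 lower after ADAR targeting. Of the 278 genes, 231 were tested there, 215 had a value above 0 with a median of 0.29 (0.01 over all genes), and 9 were called (3.90%). CXCL10 and IFIT2 had log2 fold changes of 4.34 and 1.502 there, and ASNS and CHAC1 of 0.38 and 1.32 with adjusted p-values of 0.580 and 0.297. On day 5, 36 genes were higher (0.273%) and 0 lower. Of the 231 genes, 229 had a value above 0 with a median of 0.50 (−6.42e-05 over all genes). Of these 231, 32 were called, which is 13.9% of the 231 and 88.9% of the 36. On that day CXCL10 had a log2 fold change of 4.71 and IFIT2 of 2.42, and ASNS and CHAC1 had 0.33 and 0.40 with adjusted p-values of 0.435 and 0.659. No member of the integrated stress response was called in study 1 on either day, with medians of 0.33 on day 4 and 0.32 on day 5 over 21 members. ADAR RNA itself differed by −0.13 on day 4 and −0.03 on day 5, against −0.77 in the wild-type clone. Whether the responses of the clones differ was not tested in a common model, and clone and gRNA cannot be told apart.

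In hnRNPC-targeted cells, 274 of the 278 genes had a value above 0 after ADAR targeting, with a median of 1.47 against −0.13 over all genes. The response differed from that in cells with hnRNPC for 659 genes (4.83%), 4 of them among the 278. This count was 9 without replicate 2 of hnRNPC-targeted cells, 257 without replicate 2 of cells with both gRNAs, 322 without ADAR-targeted replicate 2, 135 without CTRL replicate 2, and 1688 without CTRL replicate 1. Of the genes named above, TNFAIP3 and ICAM1 had a larger rise in hnRNPC-targeted cells, by 1.25 and 1.36 on the log2 scale (adjusted p = 0.0235 and 0.0205).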

How the data were processed

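Total RNA of Cas9-transgenic THP-1 cells was sequenced in 2 libraries per group after ribosomal RNA depletion, and samples were grouped by their labels. The authors deposited raw counts of uniquely mapped reads per gene and ECR (GRCh37; STAR 2.5.4a, featureCounts, and bedtools per the submitters' processing notes) and counts of edited and all reads per editing site. Sites came from SAILOR, had to pass its filters in at least 1 library with intact ADAR, and exclude positions that differ in the genomic DNA of the STING-deficient clone.

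Gene counts of all 18 libraries of study 2 were fitted with edgeR 4.0.16 (R 4.3.3; TMM factors, quasi-likelihood test, 1 coefficient per group) for 13637 genes whose mean log2 CPM reached 0.5 (4.5 for ECRs). A call needed a log2 fold change of 1 or more in size and a Benjamini-Hochberg adjusted p no higher than 0.05. Edited and unedited reads were fitted in the 8 total RNA libraries, for ECRs summed over at least 3 tested sites. Study 1 was fitted separately. Intervals and zero-count limits cover counting error only. Named genes were ADAR, ADARB1, ADARB2, and HNRNPC, the 15 called genes with the largest change in each direction, and the called members of each list, or those with the largest change if none was called. Named sites had at least 100 reads and the 10 largest falls, and those at coding positions or with the smallest differences. IRF1, EIF2AK2, MAVS, ATF4, HMGCS1, SREBF2, BNIP3, BNIP3L, and the lower genes called with and without CTRL replicate 2 were named after their values were seen, as were IFN genes, TNF, IL6, and VLDLR. Members and lists were chosen with earlier results of these data known. Alternatives were DESeq2 1.42.0, limma 3.58.1, other filters and library sets, and leaving out each library. Steps were tested on simulated data. Some genes and sites are not reported here.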

Additional observations from a re-analysis of the deposited data

Results flagged for a closer look

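The response to ADAR targeting differed between cytosolic and total RNA for 133 genes by the test of the difference itself. Among the named genes, CSF1R was such a gene, with a response higher by 1.10 on the log2 scale in cytosolic RNA, as were the marker genes AZU1 and NCAM1, by 1.22 and 1.29 (adjusted p = 0.0120 and 0.0227).

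The response in total RNA differed between hnRNPC-targeted and other cells for 659 genes. RNU1-3 had a difference of −11.0 on the log2 scale. The other named genes had a higher value in hnRNPC-targeted cells: POLR2A by 4.11, SHMT1P1 by 3.50, MTND4P12 by 3.41, KMT2D by 3.34, SON by 2.88, ENSG00000264853 by 2.87, and ZNF154 by 2.78. MKI67 differed by 2.11, TYMS by 1.92, MALAT1 by 1.97, KCNQ1OT1 by 1.43, and NEAT1 by 1.36. Of the mitochondrially encoded genes, MT-ND4 differed by 2.71, MT-ND5 by 2.68, MT-ND1 by 2.66, MT-ND2 by 2.38, MT-CYB by 2.18, MT-ATP6 by 1.88, and MT-ND4L by 1.81. TNFAIP3 and ICAM1 differed by 1.25 and 1.36. CTRL replicate 2, with its high level of the genes that were lower in total RNA, enters each of these differences, and 135 genes in all differed without it. Its part in them beyond that count was not tested.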

How the results depend on the processing

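Without the low-count filter, 554 genes were higher and 505 lower, and 239 and 1257 genes differed in response between RNA fractions and with hnRNPC targeting. DESeq2 called 187 genes lower, limma-voom 69, the fit of the 4 libraries compared 28, and that of the 8 total RNA libraries 43. With ECR totals as library size, 21 ECRs were more and 54 less abundant. Over sites with at least 50 reads, 3401 were lower and 2 higher, with at least 1% mean editing 6095 and 5, and in a fit of the 4 libraries 14 were higher. With sites of at least 20 reads, 645 ECRs were lower and 0 higher, and limma gave 0 higher. The difference in pooled editing was −14.6 points at sites with at least 50 reads, −11.9 as the mean of sites, and −4.53 over all deposited sites. The cause of these shifts was not tested, other than that stricter filters tested fewer sites.

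Leaving out 1 library at a time gave 181 to 440 higher and 18 to 391 lower genes, 19 to 41 higher IFN-stimulated genes, 4 to 21 more and 3 to 258 less abundant ECRs, 5416 to 7228 lower and 11 to 19 higher sites, 955 to 1167 lower and 1 to 4 higher ECRs, 53 to 208 and 9 to 1688 genes that differed in response, and pooled differences of −15.0 to −11.6 points. HNRNPC ranged from −0.00789 without CTRL replicate 2 to 0.60 without CTRL replicate 1, and MT-CYB from 0.0392 to −1.93. The SAMHD1 sites ranged from 3.91 and 1.90 points without CTRL replicate 2 to −6.28 and −5.18 points without CTRL replicate 1, and the former was at 0.828 points without ADAR-targeted replicate 2. Of 2 intergenic sites, 1 was at 4.74 points without CTRL replicate 2 and −7.21 without CTRL replicate 1, and the other at −8.11 and 0.0635 points. An intergenic ECR was at −1.67 points without CTRL replicate 2, 0.627 without CTRL replicate 1, and 0.506 without ADAR-targeted replicate 1.

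The study describes 2 independent experiments, and the labels do not say whether a replicate number marks the same experiment in each group. Deviations of same-numbered libraries correlated by 0.116 between CTRL and ADAR-targeted total RNA. With the replicate block, 285 genes were higher and 122 lower, 38 of them IFN-stimulated genes, 14 ECRs were more and 109 less abundant, 8870 sites were lower and 18 higher, 1104 ECRs lower and 1 higher, and 151 and 667 genes differed in response.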
